A study of Drosophila melanogaster with 12 samples.

Results

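The Cpr genes of Drosophila melanogaster encode cuticle proteins that carry the Rebers and Riddiford consensus, a chitin-binding domain. Every gene in the count tables whose symbol is Cpr followed by a number was taken, which gave 70 of 15240 genes. Of these, 46 had over 10 counts in at least 1 library and are described here. The other 24 genes held at most 10 counts in every library, and 7 of them held no count at all. Just inside this limit were Cpr67B with a highest count of 12, and Cpr67Fa1 and Cpr49Aa with 15 each. Just outside it were Cpr65Aw with 10 and Cpr65Au with 7.

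RNA of dissected wings was sequenced from animals of the strain labelled w1118/y,w, hs-FLP; + ; +, which all groups shared. The groups were wandering larvae of the last instar (L3) and animals at 6, 18, 24, 36 and 44 h after puparium formation (APF), with 40 wings for each stage and 2 independent replicates. The sample titles call the L3 libraries 0 h APF, while their stage label names wandering larvae. This made 12 libraries, with between 1659208 and 6900002 reads on genes. Each library is whole wing tissue, so more cells using a gene and more RNA per cell cannot be told apart.

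An insect wing is a sheet of epidermis that secretes its cuticle from its outer surface. The prepupal epidermis first lays down the pupal cuticle, the epidermis then separates from it, and the adult cuticle is made beneath it later in pupal life. Such a cuticle is built from chitin fibres and from proteins that bind them, and a fly draws these proteins from a large family whose members are often used at one stage or in one kind of cuticle. The individual function of most Cpr genes is known only from the domain they carry, so they are ordered here by the time of their highest level.

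All 70 genes matched a gene of the BDGP6 annotation. By chromosome arm, 35 lie on 3L, 21 on 2R, 5 on 2L, 5 on 3R and 4 on X. Cpr genes are often neighbours: 49 of the 70 fell into 12 cytological groups of at least 2 genes, and 41 had another Cpr gene as the next protein-coding gene. Near-identical copies such as Cpr67Fa1 and Cpr67Fa2, or Cpr65Ax1 and Cpr65Ax2, share reads, and reads aligned to several places were not counted on genes. The low values of these 4 genes are therefore uncertain. A further uncertainty touches the 11 Cpr genes that overlap a gene on the opposite strand, since the strand setting of the counting is not given in the sources used here. Among them are Cpr51A (with CG30197), Cpr73D (with Obp73a and Ogdh), Cpr50Ca (with S-Lap7) and Cpr56F (with CkIIbeta2). On the same strand, 3 Cpr genes overlap another gene: Cpr64Ad (with CG43367), Cpr50Ca (with lncRNA:CR43810) and Cpr57A (with Obp57d). Their counts are uncertain under either strand setting.

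The 2 libraries at 6 h APF stood apart from each other, and every value at 6 h has to be read with both replicates in view. Reads per gene were scaled to the library size with TMM factors and expressed as CPM, the reads of a gene relative to all reads on genes of that library. These values were summed over the Cpr genes. The sum was 22248 CPM in 6 h replicate 1 and 3957 CPM in replicate 2. At no other timepoint did the sums of the replicates differ by more than the step from 13298 to 17555 CPM at 18 h. Of the 30 Cpr genes with over 10 counts in at least 1 of the 6 h libraries, 20 differed at least 2-fold between the replicates, against 14.4% of all genes chosen the same way. In 17 of the 20, replicate 1 was higher, and Cpr78E, Cpr72Ea and Cpr76Bc were higher in replicate 2.

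Other genes moved with this difference between the 6 h libraries. Cuticle genes of the same domain family with other names, 26 in the files, summed to 23846 CPM in replicate 1 and 1735 CPM in replicate 2. Among them Lcp65Ad was at 15580 and 1504 CPM, and Edg78E, an ecdysone-dependent gene of the pupal cuticle, was at 4980 and 151 CPM. The genes of chitin formation summed to 51579 and 16971 CPM, and 4 tracheal genes, most of it Gasp, to 10789 and 1947 CPM. Gasp, at 10690 and 1895 CPM, is part of both sums. Of the other tracheal genes, trh was at 76.1 and 33.65 CPM, btl at 4.125 and 3.40 and dys at 14.9 and 14.95. Among the chitin genes, Cht5 was higher in replicate 2 (287 and 871 CPM). There knk (265 and 275 CPM), rtv (84.1 and 81.9), Cht2 (139 and 142) and Gfat2 (34.8 and 31.6) were nearly level. The tanning genes summed to 384 and 929.8 CPM, most of it amd (148 and 485 CPM) and ple (144 and 327 CPM), both higher in replicate 2. The 6 fat body markers summed to 148 and 668 CPM, against about 6 CPM at L3 and 96.8 to 237 CPM in the later libraries. All 6 rose from L3 to 6 h. Of these, Lsp1gamma (13.29 and 102 CPM), Lsp2 (19.25 and 125.7) and Fbp1 (63.25 and 396.3) were higher in replicate 2. Lsp1alpha (6.417 and 1.02 CPM) was higher in replicate 1, and Lsp1beta (16.04 and 15.29) and Fbp2 (30.02 and 28.21) were nearly level. The 7 wing markers summed to 969 and 988 CPM, within their range of 799 to 2137 CPM over all libraries, and ftz-f1, which encodes a nuclear receptor of prepupal development, was at 1603 and 1230 CPM. The part of these differences in the Cpr results was not tested. The 6 salivary glue genes were near 0 throughout, with sums between 0 and 3.78 CPM.

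**Figure D1:**
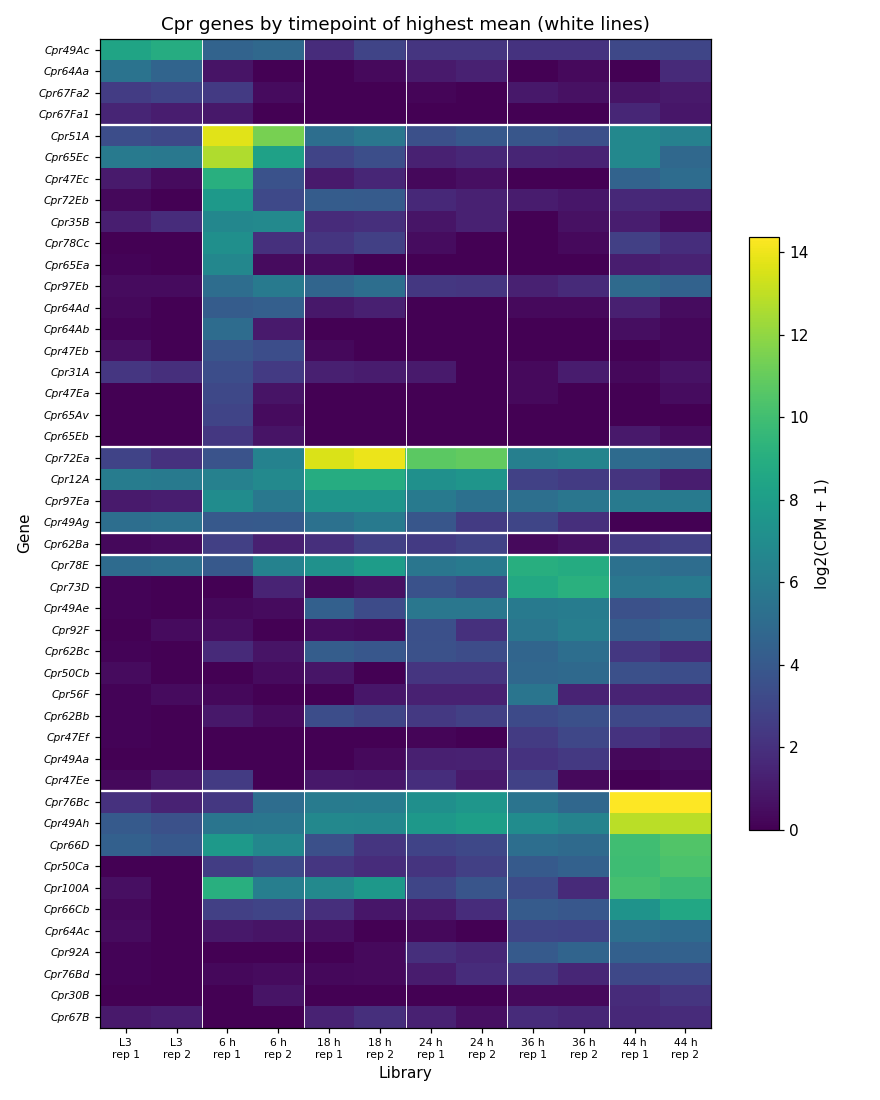
Level of the 46 Cpr genes (vertical axis) in each of the 12 libraries (horizontal axis), as log2(CPM + 1) in colour. Genes are grouped by the timepoint of their highest mean, with white lines between groups, and the bright blocks lie at 6 h, at 18 and 24 h, at 36 h and at 44 h.

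The summed level of the family varied widely over metamorphosis. At L3 the Cpr genes held 649 and 741 CPM in the replicates. After the unequal sums at 6 h, the libraries at 18 h held 13298 and 17555 CPM. The sums were then low, at 2475 and 2842 CPM at 24 h and 1590 and 1642 CPM at 36 h. At 44 h they were highest, at 32435 and 33418 CPM. As a share of the reads on genes, the Cpr genes made up a mean of 0.0902% in L3 wings, 1.12% in 6 h wings (1.89 and 0.347% in the replicates), 1.87% in 18 h wings, 0.311% in 24 h wings, 0.144% in 36 h wings and 2.33% in 44 h wings.

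At most timepoints a single gene held most of these reads. Cpr49Ac took 58.3% of the summed Cpr CPM at L3, Cpr51A took 62.0% at 6 h and Cpr72Ea took 90.8% at 18 h and 68.9% at 24 h. Cpr76Bc took 64.5% at 44 h. The exception was 36 h, where Cpr78E and Cpr73D took 30.7 and 30.0%. These are shares of reads and were not corrected for gene length. By reads, Cpr72Ea ranked 3 and 2 among all genes in the 18 h libraries, Cpr76Bc ranked 9 and 8 at 44 h, and Cpr51A ranked 6 and 71 at 6 h.

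**Figure D2:**
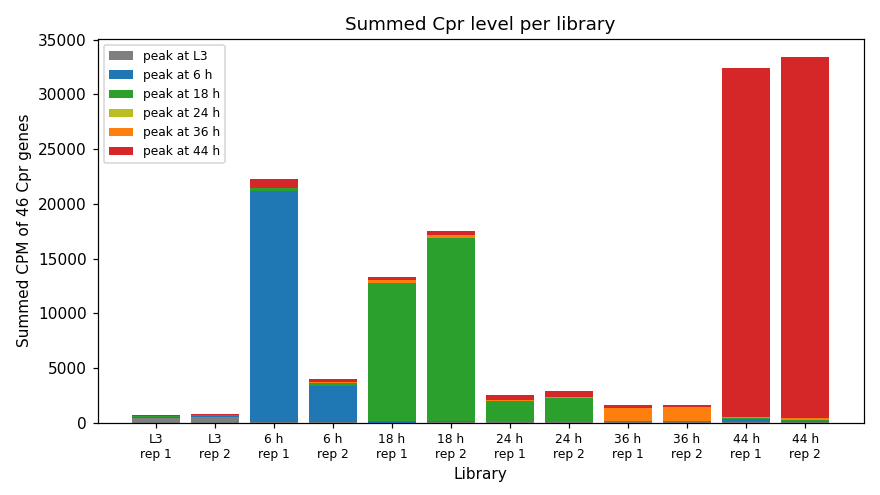
Summed CPM of the 46 Cpr genes (vertical axis, from 0) in each library (horizontal axis), with colours for the timepoint at which each gene had its highest mean. The 6 h replicates stand at 22248 and 3957 CPM, and the 44 h libraries at 32435 and 33418 CPM.

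The timepoint with the highest mean CPM was taken as the peak of each gene. This is a description and carries no test. By this rule 4 genes had an L3 peak, 15 a 6 h peak, 4 an 18 h peak, 1 a 24 h peak, 11 a 36 h peak and 11 a 44 h peak. Of all 8937 genes with over 10 counts in a library, 15.2% peaked at 6 h, 16.7% at 36 h and 21.7% at 44 h, against 32.6, 23.9 and 23.9% of the Cpr genes. Among the 6 h genes, Cpr65Ea, Cpr64Ab, Cpr47Ea, Cpr65Av and Cpr65Eb had over 10 counts in 6 h replicate 1 alone. They entered the set only through the library where they were high, which limits the comparison of shares at 6 h. For 33 of the 46 Cpr genes both libraries of the peak lay above every other library, which held for 53.2% of all genes. It held for 9 genes in each of the 6 h, 36 h and 44 h groups. At 6 h these include Cpr64Ab, Cpr47Ea and Cpr65Av, with 3, 2 and 1 counts in replicate 2, too few to be told from 0. At 36 h they include Cpr56F, whose lower library, at 1.665 CPM, was barely above its 1.661 CPM in 44 h replicate 1.

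The prepupal group, with its peak at 6 h, held 15 genes and ranged from Cpr65Eb with a mean of 2.40 CPM to Cpr51A with a mean of 8129 CPM. Cpr51A was at 9.45 and 7.56 CPM at L3, 13479 and 2779 in 6 h wings, 35.5 and 50.4 in 18 h wings, 10.4 and 14.8 in 24 h wings, 13.5 and 10.3 in 36 h wings and 103 and 78.3 in 44 h wings. The lower 6 h library was thus far above all others, although the replicates differed nearly 5-fold. Cpr65Ec was at 59.2 and 53.2 CPM at L3, 6442 and 301 in 6 h wings, 6.79 and 10.1 in 18 h wings, 1.55 and 2.04 in 24 h wings, 1.77 and 1.67 in 36 h wings and 103 and 28.3 in 44 h wings. Its 6 h libraries also lay above the rest, but replicate 2 was 21.4-fold below replicate 1.

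For several genes of this group the peak rested on replicate 1. Cpr47Ec was at 545 CPM in 6 h replicate 1 and at 11.6 CPM in replicate 2, below its 22.8 and 32.6 CPM at 44 h. Cpr72Eb was at 211 and 8.16 CPM at 6 h against 17.2 and 16.5 CPM at 18 h. Cpr78Cc was at 143 and 3.06 CPM at 6 h against 3.66 and 5.60 CPM at 18 h. The widest gap was that of Cpr65Ea, at 100.4 CPM in replicate 1, from 438 counts, and 0.340 CPM in replicate 2, from 1 count. Without 6 h replicate 1, these 4 genes peaked at another timepoint and 11 genes were left with a 6 h peak. This count kept the genes as chosen on all libraries. Among the 11, Cpr64Ab (145 and 3 counts at 6 h), Cpr47Ea (33 and 2), Cpr65Av (30 and 1) and Cpr65Eb (18 and 2) exceeded 10 counts only in 6 h replicate 1. Without that library they would not have been in the set.

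A smaller number of prepupal genes did not share this gap. Cpr35B was at 98.1 and 107 CPM at 6 h and at or below 2.80 CPM in every other library. Cpr64Ad was at 17.2 and 19.4 CPM at 6 h and did not exceed 1.42 CPM elsewhere. Cpr47Eb was at 12.6 and 9.52 CPM, against at most 0.485 CPM elsewhere. These 3 genes had a 6 h level that replicates shared, with no overlap with the other timepoints. Cpr97Eb was at 33.7 and 60.5 CPM at 6 h, the higher value in replicate 2, and overlapped its 18 h values of 24.6 and 35.5 CPM.

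Of the 15 genes with a 6 h peak, 11 were at least 2-fold higher in replicate 1 and 0 at least 2-fold higher in replicate 2. Besides those above, the 11 include Cpr64Ab at 33.2 and 1.02 CPM, Cpr31A at 9.40 and 4.42, Cpr47Ea at 7.56 and 0.680, Cpr65Av at 6.88 and 0.340, and Cpr65Eb at 4.13 and 0.680. The low genes of this list rest on 1 to 13 counts in replicate 2.

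**Figure D3:**
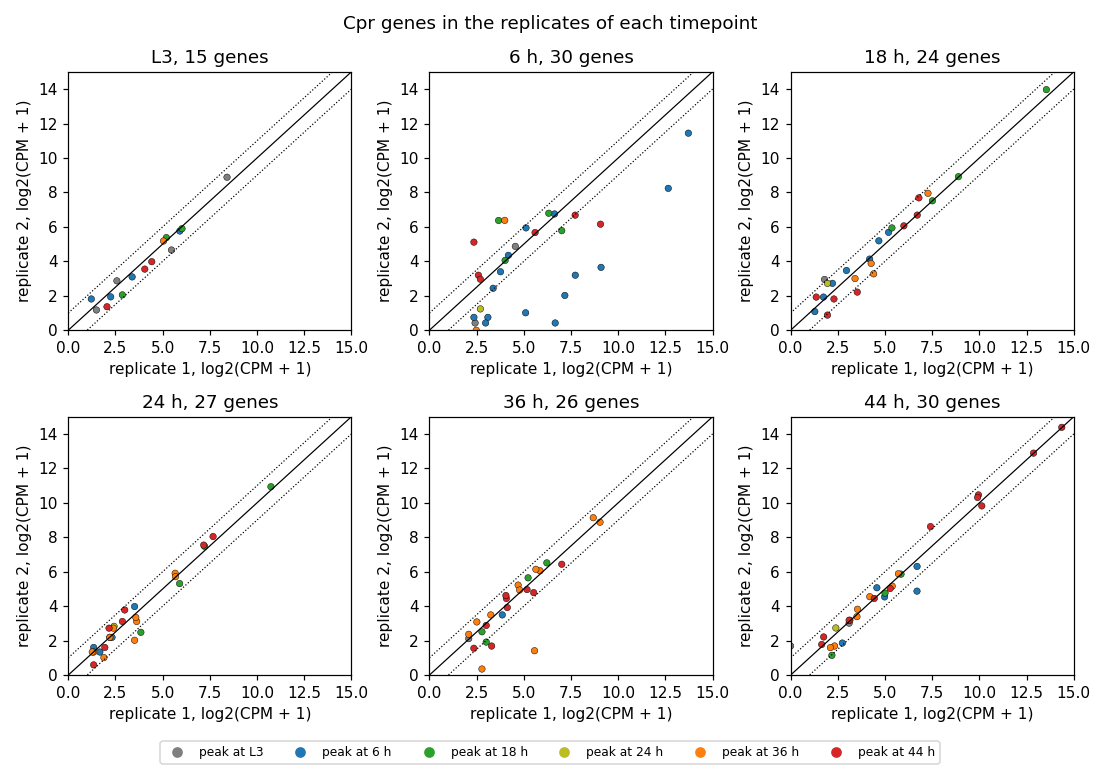
Level of each Cpr gene in replicate 1 (horizontal axis) and replicate 2 (vertical axis) as log2(CPM + 1), with a panel for each timepoint and 15 to 30 genes with over 10 counts in 1 of the 2 libraries. The solid line marks equal values and the dotted lines a 2-fold difference on the plotted scale. At 6 h 20 of 30 genes differed at least 2-fold, most of them higher in replicate 1. Cpr31A, at 9.40 and 4.42 CPM, is among the 20 but lies inside the dotted lines, since 1 is added to each CPM.

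Replicates were closer at the other timepoints. At L3, 0 of 15 Cpr genes differed at least 2-fold (2.28% of all genes). The numbers were 4 of 24 at 18 h (3.61%), 4 of 27 at 24 h (6.88%), 5 of 26 at 36 h (6.20%) and 5 of 30 at 44 h (4.42%). At 36 h, Cpr56F was at 46.5 and 1.67 CPM and Cpr47Ee at 5.88 and 0.278 CPM, and the peak of Cpr47Ee rested on replicate 1. The lower value of Cpr56F lay level with its 1.66 CPM in 44 h replicate 1. At 44 h, Cpr66Cb was at 169 and 393 CPM. The 6 muscle markers also differed there, with sums of 540 and 2134 CPM, and the part of this in the Cpr values was not tested.

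The 36 h group held 11 genes at mostly moderate levels, with 2 above 100 CPM. Cpr78E was at 32.1 and 35.3 CPM at L3, 14.9 and 82.2 in 6 h wings, 154 and 246 in 18 h wings, 49.7 and 59.1 in 24 h wings, 525 and 469 in 36 h wings and 40.8 and 34.8 in 44 h wings. It thus showed 2 maxima, at 18 h and at 36 h, with lower values between them. Cpr73D was at or below 1.70 CPM in all libraries up to 18 h, then at 11.3 and 7.65 CPM in 24 h wings, 409 and 562 in 36 h wings and 51.5 and 58.1 in 44 h wings. Its 36 h libraries stood clear of all others.

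The remaining genes of the 36 h group were lower. Cpr49Ae was already at 50.4 and 51.5 CPM at 24 h and reached 57.1 and 65.5 CPM at 36 h, before 10.7 and 13.2 CPM at 44 h. Cpr92F reached 48.8 and 69.7 CPM, Cpr50Cb 26.5 and 29.7 CPM, and Cpr62Bc 25.0 and 36.4 CPM. Both libraries of the peak lay above all others for each of these 4 genes. The means of Cpr62Bb, Cpr47Ef, Cpr49Aa and Cpr47Ee at 36 h lay between 3.08 and 9.40 CPM.

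The 44 h group held 5 genes above 1000 CPM. Cpr76Bc was at 3.15 and 1.57 CPM at L3, 4.13 and 33.6 in 6 h wings, 63.1 and 65.8 in 18 h wings, 144 and 186 in 24 h wings, 45.0 and 26.6 in 36 h wings and 21108 and 21377 in 44 h wings. Cpr49Ah was at 15.6 and 10.7 CPM at L3, 47.4 and 49.96 in 6 h wings, 104 and 102 in 18 h wings, 203 and 263 in 24 h wings, 128 and 85.5 in 36 h wings and 7491 and 7572 in 44 h wings. Both genes were thus detected in every library and were highest at 44 h, where the replicates of each gene differed by a factor of 1.01.

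The next genes of this group were lower. Cpr50Ca was at 15.9 and 20.8 CPM at 36 h, 959 and 1271 CPM at 44 h and at or below 8.16 CPM before. Cpr66D reached 989.9 and 1408 CPM at 44 h and had a lower maximum of 209.9 and 102 CPM at 6 h. Cpr100A reached 1119 and 905 CPM at 44 h, and its 534 and 70.3 CPM at 6 h overlapped its 110.2 and 205 CPM at 18 h. Cpr66Cb rose from 16.5 and 14.2 CPM at 36 h to 169 and 393 CPM at 44 h. Cpr64Ac reached 37.7 and 31.6 CPM, and Cpr92A was at 15.6 and 23.6 CPM at 36 h and 20.6 and 20.8 CPM at 44 h, which overlap. The means of Cpr76Bd, Cpr30B and Cpr67B at 44 h were between 2.28 and 7.84 CPM.

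The few remaining genes peaked outside these 3 times. Cpr72Ea was at 6.30 and 3.15 CPM at L3, 11.7 and 81.9 in 6 h wings, 11999 and 16031 in 18 h wings, 1707 and 1958 in 24 h wings, 73.6 and 90.5 in 36 h wings and 31.1 and 26.1 in 44 h wings. It was the one Cpr gene above 1000 CPM between the prepupal and the 44 h maximum. Cpr12A was at 474 and 482 CPM at 18 h, with 148 and 177 CPM at 24 h and under 6 CPM from 36 h on. Cpr97Ea was at 182 CPM in both 18 h libraries, and Cpr49Ag was at 40.4 and 60.5 CPM at 18 h, overlapping its 35.7 and 40.6 CPM at L3. The single gene with a 24 h peak, Cpr62Ba, was at 4.38 and 6.12 CPM there and at 4.27 and 5.67 CPM at 44 h, which overlap.

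Of the genes with a peak at L3, Cpr49Ac was at 339 and 471 CPM, 22.5 and 28.2 CPM at 6 h and at most 7.59 CPM afterwards. Cpr64Aa was at 43.4 and 24.3 CPM at L3 and did not exceed 2.23 CPM later. Cpr67Fa2 was at 4.97 and 6.30 CPM and Cpr67Fa1 at 1.82 and 1.26 CPM, and the latter overlapped its 44 h values.

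Levels of different genes were compared as CPM per kb of exon, with exon lengths of the BDGP6 annotation. At their peaks, Cpr51A (12487 CPM per kb), Cpr72Ea (12208) and Cpr76Bc (11557) had the highest levels. The replicates of Cpr51A, 20705 and 4269, spanned both other genes, so these 3 could not be put in order. Cpr49Ah followed with 7607 CPM per kb, in replicates 7566 and 7648, and Cpr65Ec with 5957, in replicates 11382 and 531. Cpr66D (1086), Cpr78E (1072), Cpr100A (734), Cpr12A (557), Cpr50Ca (325) and Cpr66Cb (281) came next. The replicates of Cpr66D, 897 and 1276, enclosed those of Cpr78E, 1133 and 1012. Cpr47Ec had a mean of 374, in replicates 732 and 15.5, so its place rested on 1 library. At the low end was Cpr76Bd, the neighbour of Cpr76Bc, with 1.73 CPM per kb.

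**Figure D4:**
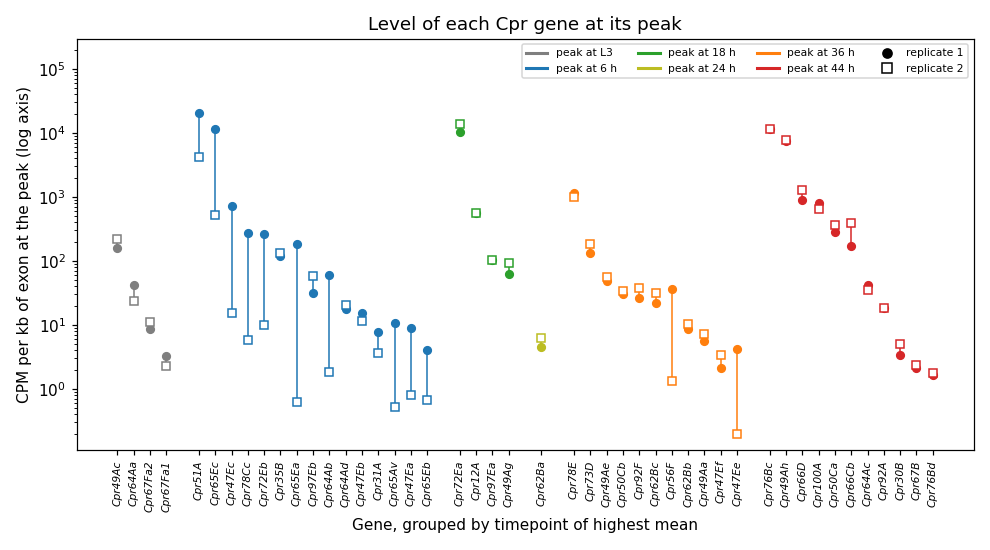
Level of each of the 46 Cpr genes at its peak, in CPM per kb of exon on a log axis, with filled circles for replicate 1, open squares for replicate 2 and a line between them. Genes are grouped by the timepoint of the peak; Cpr51A, Cpr72Ea and Cpr76Bc have means between 11557 and 12487, and the longest lines belong to genes with a 6 h peak.

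To ask in which intervals the family changed, consecutive timepoints were compared by fitting edgeR's quasi-likelihood test to all 12 libraries at once and adjusting p-values by Benjamini and Hochberg over the 8469 genes tested. A gene was counted as changed with an adjusted p under 0.05 and at least a 2-fold change. Of the 46 Cpr genes, 44 were expressed highly enough to be tested (log2 CPM above 2 in at least 1 library). Fold changes below are log2 values with their standard errors, later minus earlier.

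From L3 to 6 h, 24 Cpr genes rose and 3 fell, where 18.1% of all genes rose and 14.7% fell. The median change was 3.15 for the Cpr genes and 0.01 for all genes. Cpr51A rose by 9.87 ± 0.78 (edgeR, adjusted p = 1.7e-06). Cpr78Cc had 0 counts in both L3 libraries, and its 6 h level was at least 77.5-fold higher, as the mean of both replicates over a floor of 3 counts per library (edgeR, adjusted p = 0.00185). This rested on replicate 1 at 143 CPM, since replicate 2 at 3.06 CPM was 3.24-fold above the floor. Cpr35B, whose replicates agreed, rose by 5.87 ± 0.38 (edgeR, adjusted p = 3.5e-07). Cpr49Ac fell from a mean of 405 CPM to one of 25.3 CPM (edgeR, adjusted p = 2.1e-06). Cpr64Aa was at least 33.2-fold lower at 6 h by its L3 mean, and 23.8-fold by its lower L3 replicate (edgeR, adjusted p = 0.00016). Without 6 h replicate 1, 23 Cpr genes changed, and 7 of the 27 were no longer called, among them Cpr65Ea and Cpr64Ab. Without replicate 2, 28 changed.

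From 6 to 18 h, 9 Cpr genes rose (14.3% of all genes) and 17 fell (17.8% of all genes), with a median change of -1.06 against 0.00 for all genes. Cpr72Ea rose by 8.25 ± 0.80 (edgeR, adjusted p = 8.0e-06). Cpr49Ae was at least 14.1-fold higher at 18 h by its mean, and 8.51-fold by its lower replicate (edgeR, adjusted p = 2.0e-05). Cpr65Ec fell by 8.67 ± 1.28 on the log2 scale (edgeR, adjusted p = 0.00021), and Cpr64Ab was at least 20.4-fold lower by its mean (edgeR, adjusted p = 0.0065), a value set by replicate 1, since replicate 2 was 1.21-fold above the floor. Without 6 h replicate 1, 10 of the 26 calls were lost, among them Cpr64Ab and Cpr72Eb, and the fold changes of 2 of them changed sign. Leaving out either 18 h library gave 17 changed genes, and the call of Cpr64Ab was also lost without 18 h replicate 1.

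The interval from 18 to 24 h had the fewest changes, with 6 Cpr genes up (3.65% of all genes) and 8 down (5.16% of all genes). Cpr73D was at least 11.3-fold higher at 24 h by its mean, and 9.11-fold by its lower replicate (edgeR, adjusted p = 0.0012). Cpr92A was at least 2.90-fold higher by its mean, and 2.43-fold by its lower replicate (edgeR, adjusted p = 0.0059). Cpr100A fell by 4.11 ± 0.86 on the log2 scale (edgeR, adjusted p = 0.0091). Cpr64Ad was at 0.914 and 1.40 CPM at 18 h and held no count at 24 h (edgeR, adjusted p = 0.031), a difference that lies at the floor of the 24 h libraries. Cpr72Ea fell by 2.94 ± 0.62 on the log2 scale (edgeR, adjusted p = 0.0099). Without 18 h replicate 2, 8 Cpr genes changed, and without 24 h replicate 1, 6 did. The calls of Cpr100A, Cpr64Ad and Cpr72Ea were lost in both cases and that of Cpr92A without 24 h replicate 1. Those of Cpr64Ad and Cpr92A were also lost without 18 h replicate 1, while Cpr73D was called without any 1 of the 4 libraries.

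From 24 to 36 h, 12 Cpr genes rose (15.3% of all genes) and 5 fell (10.1% of all genes). The median change was 0.02 for the Cpr genes and -0.04 for all genes. Cpr73D rose by 5.60 ± 0.42 (edgeR, adjusted p = 2.1e-06). Cpr47Ef was at least 3.99-fold higher at 36 h by its mean, and 3.08-fold by its lower replicate (edgeR, adjusted p = 0.0023). Cpr78E rose by 3.20 ± 0.56 (edgeR, adjusted p = 0.00097). Cpr12A fell by 4.93 ± 0.34 on the log2 scale (edgeR, adjusted p = 1.3e-06) and Cpr72Ea by 4.48 ± 0.67 (edgeR, adjusted p = 0.00035). With the deposited RPKM values in limma, 8 rose and 6 fell, with a median change of -0.60 for all genes.

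From 36 to 44 h, 12 Cpr genes rose (10.5% of all genes) and 9 fell (9.38% of all genes), with a median change of 1.25 against 0.08 for all genes. Cpr76Bc rose by 9.21 ± 0.82 (edgeR, adjusted p = 8.25e-06) and Cpr49Ah by 6.14 ± 0.32 (edgeR, adjusted p = 2.0e-07). Cpr47Ec had 0 counts in both 36 h libraries. Its 44 h level was at least 31.4-fold higher by the mean, and 25.8-fold by the lower replicate (edgeR, adjusted p = 0.029). This call was lost without any 1 of the 4 libraries of the interval. Cpr49Ag held no count at 44 h. It was at least 6.91-fold lower there by its 36 h mean, and 3.90-fold by its lower 36 h replicate (edgeR, adjusted p = 0.0022). Cpr56F fell by 3.85 ± 1.12 on the log2 scale (edgeR, adjusted p = 0.024), although its 36 h replicates were at 46.5 and 1.67 CPM, and the call was lost without 36 h replicate 1 or either 44 h library. With the deposited RPKM values in limma, 11 rose and 5 fell, with a median change of 0.25 for all genes.

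The prepupal and the later cuticle phases were also compared directly. These comparisons share the 6 h libraries with each other and with the intervals above. From 6 h to 36 h, 16 Cpr genes were higher (17.0% of all genes) and 21 lower (16.2% of all genes), and 7 of the 44 did not pass. From 6 h to 44 h, 14 were higher (16.6% of all genes) and 14 lower (14.6% of all genes). Without 6 h replicate 1 the totals were 28 and 29, and without replicate 2 they were 40 and 36. At 44 h, for example, Cpr76Bc was up by 10.18 ± 0.86 (edgeR, adjusted p = 3.4e-06) and Cpr35B down by 7.01 ± 0.42 on the log2 scale (edgeR, adjusted p = 3.0e-07).

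Use in both phases was defined as at least 10 CPM in both 6 h libraries and in both libraries of 36 h or of 44 h. By this rule 10 of the 46 Cpr genes (21.7%) were used in both phases, against 59.0% of the 8937 genes with over 10 counts. The 10 genes were Cpr51A, Cpr65Ec, Cpr47Ec, Cpr97Eb, Cpr72Ea, Cpr97Ea, Cpr78E, Cpr49Ah, Cpr66D and Cpr100A. In all, 15 Cpr genes reached this level in both 6 h libraries and 20 in both libraries of a later phase. At a limit of 100 CPM 1 gene, Cpr66D, was left, and at 1 CPM there were 19.

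The 10 genes differed in the balance between the phases. Cpr51A was 89.7-fold and Cpr65Ec 51.4-fold higher at 6 h than at 44 h by their means. In 6 h replicate 2 the gap was smaller, with Cpr51A at 2779 CPM against 103 and 78.3 at 44 h, and Cpr65Ec at 301 CPM against 103 and 28.3. Cpr97Eb was at 33.7 and 60.5 CPM at 6 h and 30.6 and 22.3 CPM at 44 h, a change of -0.82 ± 0.29 that was under 2-fold (edgeR, adjusted p = 0.038). Cpr100A was at 534 and 70.3 CPM at 6 h and 1119 and 905 CPM at 44 h, and its change of 1.74 ± 0.71 did not pass (edgeR, adjusted p = 0.068). Cpr66D was at 209.9 and 102 CPM at 6 h and higher at 44 h by 2.94 ± 0.41 (edgeR, adjusted p = 0.00016). Cpr49Ah was 155-fold higher at 44 h than at 6 h by its means.

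Cpr47Ec went from a mean of 278 CPM at 6 h to 27.7 CPM at 44 h, a change of -3.33 ± 1.09 (edgeR, adjusted p = 0.029). Its direction was that of 6 h replicate 1 alone, since without that library the change was 1.26. With replicate as a block the change was -2.22 and no longer passed (edgeR, adjusted p = 0.17).

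Only some of the 10 genes were low between the phases. The mean levels of Cpr51A, Cpr65Ec, Cpr47Ec and Cpr66D at both 18 and 24 h were at most 50% of the lower of their 6 h and later means. Such a trough was present in 4 of the 46 Cpr genes (8.70%) and in 6.46% of all 8937 genes. Cpr66D, at 10.6 and 3.64 CPM at 18 h and 6.31 and 7.65 CPM at 24 h, was higher in both 44 h libraries than in both 6 h libraries. Cpr97Eb and Cpr100A had the trough at 24 h but not at 18 h. Cpr72Ea, Cpr97Ea, Cpr78E and Cpr49Ah had no trough, and Cpr72Ea had its maximum between the phases.

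**Figure D5:**
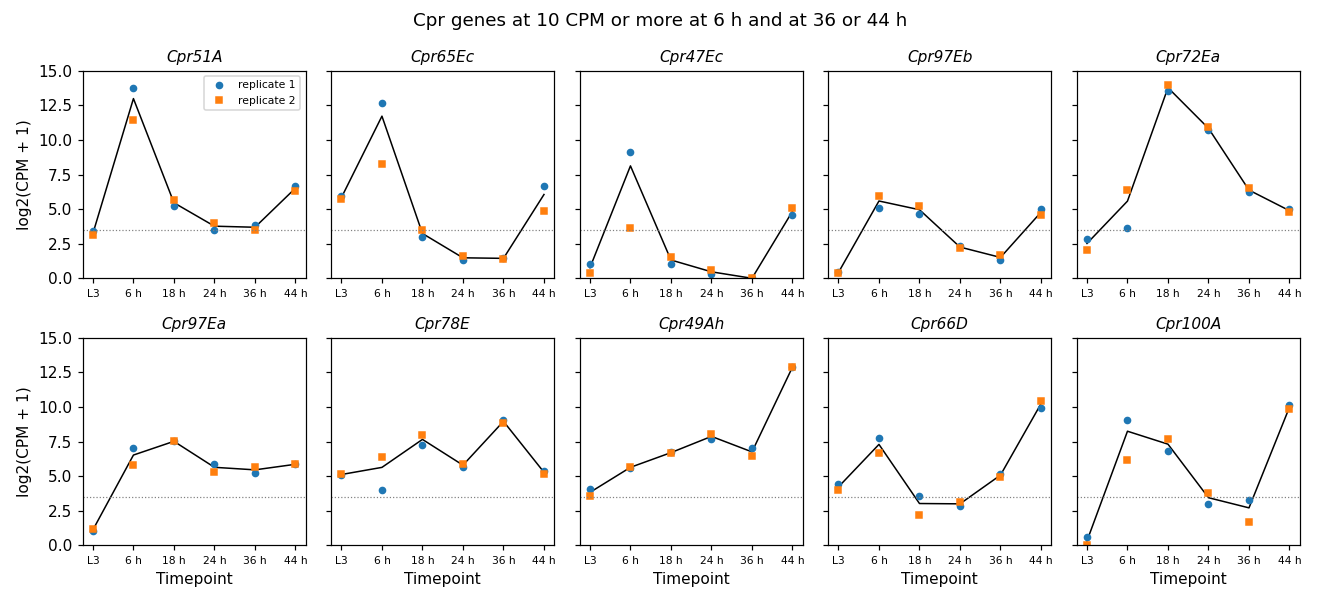
Time courses of the 10 Cpr genes at 10 CPM or more in both 6 h libraries and in both libraries of 36 or 44 h, as log2(CPM + 1) against timepoint, with circles and squares for the replicates, a line through the means and a dotted line at 10 CPM. Cpr51A, Cpr65Ec, Cpr47Ec and Cpr66D are low at 18 and 24 h, and Cpr72Ea is highest at 18 h.

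Neighbouring genes did not always share a time of peak. Of 13 pairs of neighbouring Cpr genes that were both described here, 7 had the same peak. The 3 genes of the 65E group (Cpr65Ea, Cpr65Eb and Cpr65Ec) all peaked at 6 h, and Cpr76Bc and Cpr76Bd both peaked at 44 h. In contrast, the 5 described genes of the 49A group had 4 different peaks: Cpr49Ac at L3, Cpr49Ag at 18 h, Cpr49Ae and Cpr49Aa at 36 h, and Cpr49Ah at 44 h. The 4 genes of the 64A group had 3, with Cpr64Aa at L3, Cpr64Ab and Cpr64Ad at 6 h and Cpr64Ac at 44 h. Cpr72Ea and its neighbour Cpr72Eb peaked at 18 and 6 h, and Cpr97Ea and Cpr97Eb at 18 and 6 h.

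Other genes of cuticle formation were followed beside the family. Of 18 tested genes of the same domain family with other names, 13 rose and 0 fell from L3 to 6 h (18.1 and 14.7% of all genes). From 6 to 18 h, 2 rose and 11 fell (14.3 and 17.8% of all genes). Among the later ones, resilin, the gene for the elastic cuticle protein, was at 21.2 and 28.0 CPM at 36 h and 136 and 207 CPM at 44 h. Of 15 genes for chitin synthesis, assembly and turnover, 11 rose and 0 fell from L3 to 6 h, and 10 fell and 0 rose by 18 h. From 36 to 44 h, 7 rose and 2 fell (10.5 and 9.38% of all genes). Gasp, for a chitin-binding protein, was at 10690.0 and 1895 CPM at 6 h and 8028 and 6953 CPM at 44 h, against 21.0 and 53.5 CPM at 24 h.

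Genes of cuticle tanning and of the ecdysone response followed their own times. Of 14 tanning genes, 8 rose and 1 fell from L3 to 6 h (18.1 and 14.7% of all genes). From 24 to 36 h, 9 rose and 0 fell (15.3 and 10.1% of all genes). Among these e, which encodes an enzyme of dopamine conjugation, had means of 4.36 CPM at 24 h, 457 CPM at 36 h and 2.99 CPM at 44 h. Of 15 regulators, 6 rose and 3 fell from L3 to 6 h (18.1 and 14.7% of all genes). From 36 to 44 h, 4 rose and 5 fell (10.5 and 9.38% of all genes). The mean of ftz-f1 was 1416 CPM at 6 h and at most 49.3 CPM at the other timepoints.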

How the data were processed

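The authors dissected wings, made stranded mRNA libraries, aligned reads to dm3 with TopHat2 (2.1.0) and counted them on genes with HTSeq (0.6.1). The deposited counts are raw reads per gene, with 2 replicates for each of 6 timepoints. Between 44.0 and 75.2% of the records of a library were not assigned to a gene, most of them because they aligned to more than 1 place, and these were left out. Floors of 3 counts cover counting error only.

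RPKM values that the authors calculated with edgeR were deposited too. The gene lengths implied by these values and the counts did not belong to the genes they stood beside. Against BDGP6 exon lengths their rank correlation was 0.014 over 9817 genes, with 1.49% within 2% of the annotated length. Read in an order of gene names that ignores case, it was 0.964 over 9776 genes, with 74.0% within 2%. Deposited RPKM levels were therefore not compared between genes, and BDGP6 exon lengths were used for CPM per kb. The length cancels in a change of 1 gene over time apart from the pseudocount of 1, and the RPKM values were used only for such changes, as an alternative with limma. They are scaled to all records of a library, assigned to a gene or not, and this scaling does not cancel over time. With them the median change of all genes was 0.52 from 6 to 18 h and -0.60 from 24 to 36 h. The peaks of 6 Cpr genes also changed. A further 2 RPKM columns match no sample and were not used.

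Counts were scaled with TMM and tested with edgeR 4.0.16 (glmQLFit, glmQLFTest, prior count 2) in R 4.3.3, across 8469 genes, with 7 comparisons. The alternatives used limma 3.58.1, DESeq2 1.42.0, other scaling and filters, glmTreat, the 4 libraries of a comparison alone, a replicate block and leaving out each library. The steps were tested on simulated data. Genes named are the 6 highest per kb in the 6, 36 and 44 h groups, all with another peak or used in both phases, the 2 largest rises and falls of each interval, those with unequal replicates at the peak, members of described clusters, and others added after their values were seen. The Cpr genes and the other lists were chosen with earlier results of these data known. Coordinates are not given, since the counts were made on dm3.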

Additional observations from a re-analysis of the deposited data

How the results depend on the processing

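Each count of changed Cpr genes was recomputed under other settings. Scaling, filters and DESeq2's Wald test kept each count within 1.5 times. glmTreat gave 5 changed genes from 18 to 24 h in place of 14. The number of 6 h peaks was 9 in place of 15 among genes with over 100 counts, and also 9 when both peak libraries had to lie above every other library. The number of 36 h peaks was 17 in place of 11 with no limit other than 1 count and 7 with over 100 counts. Genes used in both phases numbered 19 at 1 CPM and 1 at 100 CPM, in place of 10. The cause was not tested beyond the change in genes counted that each limit makes.

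Leaving out each library in turn gave 20 to 28 changed genes from L3 to 6 h, 17 to 27 from 6 to 18 h, 6 to 12 from 18 to 24 h, 15 to 16 from 24 to 36 h and 16 to 17 from 36 to 44 h. It gave 28 to 40 from 6 h to 36 h and 24 to 36 from 6 h to 44 h. The 6 h peaks numbered 11 to 17, the 36 h peaks 10 to 12, the 44 h peaks 10 to 13, and the genes used in both phases 10 to 11. For peaks and both phases, the genes chosen on all libraries were kept, also those chosen through the library left out. Cpr47Ec from 6 h to 44 h changed direction, to 1.26, without 6 h replicate 1, and was -4.29 without 6 h replicate 2.

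With the replicate block the counts were 27, 26, 15, 17 and 22 for the consecutive intervals, and 38 and 30 for 6 h against 36 and 44 h. Replicate numbers were treated as names in the main test. The replicate differences of 15 pairs of timepoints correlated between -0.16 and 0.20, with 2 over 0.1. With a single difference per timepoint, this cannot show whether libraries of the same number shared a preparation. Among 40 results for single genes under 518 alternatives, 470 kept direction and call, 35 lost the call, 12 gained it and 1 changed direction. Library size alone moved the median of all genes by -0.54 from L3 to 6 h, 0.51 from 6 to 18 h, -0.44 from 24 to 36 h, -0.26 from 36 to 44 h and -0.31 from 6 h to 44 h.

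Depth set the lower limit: in CPM, 3 counts corresponded to 0.363 to 1.53 depending on the library, and levels below that could not be told from 0.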
